A study of Mus musculus with 6 samples.

Results

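Oocyte and maternal effect genes were followed in mouse E14 embryonic stem cells whose Tip5 level had been lowered with shRNA. The set holds 10 named genes: Nlrp14, Nlrp5, Nlrp4f, Ooep, Padi6, Tle6, Zp3, Gdf9, Figla and Zar1. They were chosen by name as oocyte NLR, subcortical complex, zona and oocyte factor genes, and Nlrp14 leads them because its level in these knockdown and control arrays was already known. That same contrast therefore gives no independent evidence about the members, and their differences are descriptions without a test. Of the 10 genes, 9 had a probe, with 11 probes in all, among 16593 genes with a probe on the array. Zar1 had no probe, so its level was not measured here.

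Total RNA was measured on 6 Illumina mouse BeadChip arrays. The 3 control arrays came from E14 cells, labelled wild type, that were electroporated with a non-specific shRNA, and the 3 knockdown arrays from E14 cells given shRNAs against Tip5, the protein of the Baz2a gene. Both groups carried pSuper vectors, the knockdown a combination of constructs with different selection markers. Both were put under antibiotics from 72 hours for 6 days, and both were harvested at passage 3 after transfection. Cells of both groups grew on gelatin with 20% fetal bovine serum and 1000 U/ml of LIF. Each group stands for 1 cell line and for a selected population rather than for single clones, and the design text of the series describes transfections in triplicate.

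Values below are normalized log2 levels, so that a difference of 1 means a doubling. A probe counts as detected where its detection p, which ranks its signal among the negative controls, was under 0.05. Arrays had 12473 to 13450 detected probes. The first principal component (52.2% of the variance) set replicate 3 of both groups apart from replicates 1 and 2, and the second (29.7%) separated the groups, so each member's difference is also given over replicates 1 and 2 alone. Baz2a read 6.42, 7.51 and 5.99 on the control arrays and 5.21, 4.74 and 5.13 on the knockdown arrays, a difference of -1.62 ± 0.39 (SE, n = 3) without overlap, although knockdown replicate 2 was not detected. It did not pass the test (limma adjusted p = 0.203, and 0.0810 with the replicate number as a block), and it was -0.57 without background correction and -2.45 with the authors' processed values. All 6 embryonic stem cell markers were detected on all 6 arrays, with summed linear levels of 33403 to 38511.

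Growing oocytes store transcripts and proteins that the embryo uses before its own genome is active, and maternal effect genes are those whose product the mother must supply. Nlrp5 (MATER), Ooep (FLOPED), Tle6, Padi6 and Khdc3 (FILIA) belong to the subcortical maternal complex, a structure beneath the oocyte membrane that mouse embryos need for early cleavage. Zp3 is a glycoprotein of the zona pellucida, Gdf9 a growth factor that oocytes secrete to the surrounding follicle cells, and Figla a basic helix-loop-helix factor that binds E-box motifs in zona gene promoters. Nlrp14 is an NLR family protein of oocytes and the testis.

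Promoter windows are shown because Figla acts through the E-box. RefSeq windows on GRCm38.p6, from 250 bases before to 50 after the start, matched 8 of the 10 members, without Nlrp14 and Gdf9. The windows printed are those of the 3 members with a window that were detected on all 6 arrays. They are Ooep (chr9:78378539-78378838, minus strand), Tle6 (chr10:81600851-81601150, minus strand) and Zp3 (chr5:135979855-135980154, plus strand). For contrast, that of Padi6 (chr4:140742594-140742893, minus strand), which was detected on 1 array, is printed too. Capitals mark CANNTG, the E-box, which reads as the same motif on both strands.
Ooep: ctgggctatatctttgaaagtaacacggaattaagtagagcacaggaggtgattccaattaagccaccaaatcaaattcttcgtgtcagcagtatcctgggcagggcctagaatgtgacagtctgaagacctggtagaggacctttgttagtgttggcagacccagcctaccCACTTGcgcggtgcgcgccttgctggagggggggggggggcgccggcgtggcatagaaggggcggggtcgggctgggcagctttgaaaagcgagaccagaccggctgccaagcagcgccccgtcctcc
Tle6: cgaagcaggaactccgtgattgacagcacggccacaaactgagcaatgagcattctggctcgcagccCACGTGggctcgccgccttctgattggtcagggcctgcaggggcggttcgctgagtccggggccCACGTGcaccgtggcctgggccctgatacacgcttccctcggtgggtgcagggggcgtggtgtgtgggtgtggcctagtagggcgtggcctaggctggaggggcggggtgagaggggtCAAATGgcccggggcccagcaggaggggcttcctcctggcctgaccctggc
Zp3: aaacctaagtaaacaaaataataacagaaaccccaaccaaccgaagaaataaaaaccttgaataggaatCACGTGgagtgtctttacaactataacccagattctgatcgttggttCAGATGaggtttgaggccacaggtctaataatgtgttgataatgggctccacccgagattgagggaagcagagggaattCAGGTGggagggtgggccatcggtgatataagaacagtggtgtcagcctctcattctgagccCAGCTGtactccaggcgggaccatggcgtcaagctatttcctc
Padi6: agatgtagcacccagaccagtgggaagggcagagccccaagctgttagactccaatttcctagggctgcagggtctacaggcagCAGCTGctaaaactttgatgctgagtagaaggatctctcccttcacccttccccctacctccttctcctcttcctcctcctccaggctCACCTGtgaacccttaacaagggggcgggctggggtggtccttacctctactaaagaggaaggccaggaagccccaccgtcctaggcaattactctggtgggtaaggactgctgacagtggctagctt
The Ooep window held 1 E-box, that of Tle6 3, that of Zp3 4 and that of Padi6 2. Such a motif stood in 72.3% of all 32851 windows, so its presence does not set these promoters apart. The E-box form CACGTG, which CANNTG includes, occurred 2 times in Tle6 and 1 time in Zp3, and stood in 7.15% of all windows. CpG dinucleotides numbered 15 in Ooep, 18 in Tle6, 7 in Zp3 and 2 in Padi6, against a median of 7 over all windows. Among the windows not printed, Figla held 4 E-boxes and 16 CpG, Zar1 2 and 17, and Nlrp4f 3 and 2. Windows at other starts differed: the second Tle6 window held 3 CpG and no CACGTG, and the 2 windows of Nlrp5 held 1 and 9 CpG. A match is a description of the letters and not a bound site.

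Nlrp14 was far lower in the knockdown than in the control cells. Its only probe (ILMN_2809768, a gene on chromosome 7) read 10.31 in control replicate 1, 10.39 in replicate 2 and 9.32 in replicate 3, and 6.76, 6.97 and 6.51 in the knockdown arrays of the same order. Every knockdown array lay below every control array, and the lowest control was replicate 3. The difference was -3.26 ± 0.32 (SE, n = 3), or 10.5% of the control level. All 6 arrays detected the probe, so the lower level was still measured above background. In the deposited signal, before any correction, the controls read 1037, 945 and 1024 and the knockdown 176, 187 and 338 intensity units. Knockdown replicate 3 was thus the brightest knockdown array in the raw signal and the dimmest after normalization. The median signal of that array, 219, was also the highest of the 6, the others lying between 125 and 184. The difference was -3.48 over replicates 1 and 2 and -2.81 in replicate 3. From RNA of whole cultures, fewer cells with Nlrp14 and less Nlrp14 per cell cannot be told apart.

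**Figure D1:**
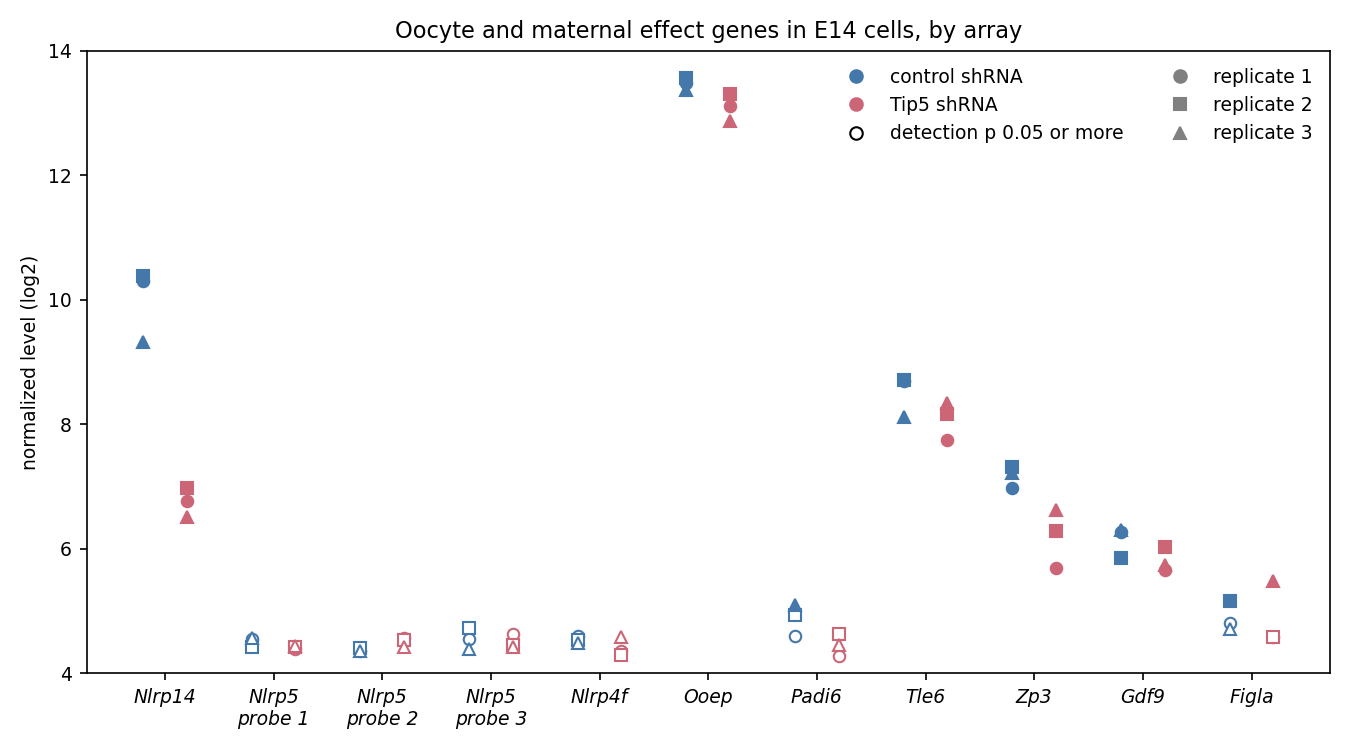
Normalized log2 level (vertical axis) of each of the 11 probes of the members on the 6 arrays, with control shRNA in blue, Tip5 shRNA in red, replicate by symbol shape and open symbols where the probe was not detected. Nlrp14 separates the groups (difference -3.26), Ooep lies between 12.87 and 13.57 on every array, and Nlrp5 and Nlrp4f have open symbols on all 6.

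The other NLR members were not measurable in these cells. Nlrp5, a maternal effect gene on chromosome 7, has 3 probes, none of which was detected on any of the 6 arrays. Nlrp4f, an oocyte NLR gene on chromosome 13, was likewise detected on 0 of 6. Its differences and those of Nlrp5, between -0.12 and 0.14, are therefore differences between background readings. No level of either gene was detectable in control or knockdown cells.

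Of the subcortical complex, Ooep and Tle6 were present and Padi6 was at the edge of detection. Ooep, a KH-domain-like protein of the complex, read 13.48, 13.57 and 13.37 in the controls and 13.11, 13.31 and 12.87 in the knockdown. The groups did not overlap, but the difference was small, -0.38 ± 0.19 (SE, n = 3), or 76.8% of the control level. Its difference was -0.32 over replicates 1 and 2 and -0.50 in replicate 3.

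Tle6, a Groucho-family co-repressor relative, read 8.69, 8.72 and 8.12 in the controls and 7.75, 8.16 and 8.34 in the knockdown. The groups overlapped, because control replicate 3 lay below knockdown replicates 2 and 3. The difference was -0.42 ± 0.25 (SE, n = 3). It was -0.75 over replicates 1 and 2 and 0.22 in replicate 3, so its sign turned with the replicate.

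Padi6, a peptidylarginine deiminase family member of oocytes, was detected on control replicate 3 alone. Its readings were 4.60, 4.94 and 5.10 in the controls and 4.28, 4.63 and 4.44 in the knockdown, all close to background, and no fold is given.

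Zp3 was the member with the largest difference after Nlrp14. It read 6.97, 7.31 and 7.22 in the controls and 5.70, 6.28 and 6.62 in the knockdown, detected on all 6 arrays. The groups did not overlap, and the knockdown arrays were more spread (SD 0.47) than the controls (SD 0.18). The difference was -0.97 ± 0.26 (SE, n = 3), or 51.1% of the control level. It was -1.15 over replicates 1 and 2, -0.60 in replicate 3, and -0.44 without background correction. Before any correction, the deposited Zp3 signal was 199, 200 and 348 in the controls and 141, 155 and 353 in the knockdown. Knockdown replicate 3 thus lay above every control array in the raw signal.

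Gdf9 read 6.27, 5.84 and 6.29 in the controls and 5.65, 6.02 and 5.74 in the knockdown. Knockdown replicate 2 lay above control replicate 2, so the groups overlapped, with a difference of -0.33 ± 0.21 (SE, n = 3). It was -0.22 over replicates 1 and 2 and -0.55 in replicate 3. Figla was detected on 2 of 6 arrays, control replicate 2 (5.16) and knockdown replicate 3 (5.48). Its other readings, 4.80 and 4.71 in the controls and 4.58 and 4.58 in the knockdown, were at background. The groups overlapped.

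Of the 9 members with a probe, 5 passed the filter on detection (at least 3 of 6 arrays), 2 were detected on 1 or 2 arrays and 2 on none. The 5 tested members all had negative differences, with a median of -0.42, against 0.02 over all 9015 tested genes, of which 4255 were negative. Without the filter, and with each gene read by its probe of highest mean, the 9 members with a probe also lay below 0 (median -0.38), as did 48.4% of all 16593 genes. In the fit across all probes 1 of the 5, Nlrp14, passed an adjusted p of 0.05, where 0.0776% of all tested genes passed in either direction and, since all 7 were lower, 0.0776% as lower. That count was 0 of 5 when control 1, control 2, knockdown 1 or knockdown 2 was left out, and also without background correction. With the replicate block it was again 1 of 5, beside 1.95% of genes in either direction and 1.22% as lower. Groups did not overlap, lower in the knockdown, for Nlrp14, Ooep and Zp3, beside 8.0% of all genes, and 17.0% in either direction. Because the members were chosen with this contrast known, nothing is read from these shares.

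Markers of other cells were measured beside the members. The 6 fibroblast and feeder markers had summed linear levels of 257 to 451 in the controls and 148 to 212 in the knockdown, with 1 of 6 (Thy1) detected on all arrays and 2 of 6 (Col3a1 and Lum) detected on none by any probe. Thy1 itself differed by -0.97 ± 0.27 (SE, n = 3, limma adjusted p = 0.255). The 7 endoderm markers summed to 3487 to 4547 in the controls and 1856 to 13931 in the knockdown, where replicate 3 was the highest, and 3 of 7 were detected on all arrays. The 6 measured markers of 2-cell-like cells, a rare state of stem cell cultures that shares transcripts with the cleaving embryo, summed to 4384 in control replicate 1, 4104 in replicate 2 and 16197 in replicate 3, and to 6901, 6562 and 19369 in the knockdown. That list was thus highest in replicate 3 of both groups, while Nlrp14 was lowest there in both. The part of these markers in the members' differences was not tested.

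A wider list of 54 oocyte and maternal genes had more negative than positive differences. It was drawn up by known role, though with earlier results of these data known. Of the 54, 46 had a probe, 21 were detected on any array and 17 were tested. None of the 17 passed in limma with 2-group means, although 8 had an unadjusted p under 0.05, as did 1009 of all 9015 tested genes. With the replicate block 2 passed, Khdc3 and Dppa3, both lower, beside 1.95% of all tested genes in either direction and 1.22% as lower. Differences were negative for 14 and positive for 3, with a median of -0.58, against 0.02 over all tested genes. For 9 of the 17 the groups did not overlap, all lower, beside 8.0% of all genes. Npm2 and Nlrp4c, both among the 9, were detected on 3 control arrays but on 0 and 1 knockdown arrays. The filter thus favoured their lower readings, in these counts and in the median. Without the filter, 30 of the 46 genes with a probe were negative, with a median of -0.05. Of all 16593 genes 48.4% were negative, with a median of 0.007. The count that passed in limma with 2-group means was 5 with replicates 1 and 2 only, beside 433 of all 9015 tested genes. It was 2 without knockdown 3, beside 81 of 9015.

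Khdc3, a further component of the subcortical complex, read 9.43, 9.90 and 9.60 in the controls and 7.05, 7.27 and 8.08 in the knockdown, detected on all 6 arrays and without overlap. The difference was -2.17 ± 0.30 (SE, n = 3), or 22.2% of the control level. In limma it missed the threshold with 2-group means (adjusted p = 0.0606) and fell with the replicate block (adjusted p = 0.0247). Over replicates 1 and 2 the difference was -2.50, and in replicate 3 it was -1.52. Both genes lie on chromosome 9, and the difference of Khdc3 minus that of Ooep was -1.79, although 3 against 3 arrays allow an exact permutation p no smaller than 0.1 for that contrast. Zbed3, the other subcortical complex gene on the list, was detected on no array.

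Dppa3 (Stella), a maternal factor that protects the maternal genome from demethylation, read 11.07, 10.96 and 10.45 in the controls and 9.54, 9.63 and 8.77 in the knockdown. The groups did not overlap, and the difference was -1.51 ± 0.29 (SE, n = 3). In limma it fell with the replicate block (adjusted p = 0.0202) but missed the threshold with 2-group means (adjusted p = 0.132). It was -1.43 over replicates 1 and 2 and -1.68 in replicate 3. Like Nlrp14, Dppa3 was lowest in replicate 3 within each group.

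Nlrp4c was the other oocyte NLRP gene that was detected. It read 8.25, 8.13 and 6.85 in the controls and 4.93, 4.67 and 6.32 in the knockdown, where replicate 3 alone was detected. The difference was -2.44 ± 0.53 (SE, n = 3), with a limma adjusted p of 0.172 and of 0.0852 with the replicate block. It was -3.39 over replicates 1 and 2, where the knockdown readings were not above background and give no measured level, and -0.53 in replicate 3. It was -1.08 without background correction and -3.45 with the authors' processed values. The other 3 probes of Nlrp4c were detected on no array. The NLRP genes have close copies, and whether the probe reads other family members was not tested. None of the other 6 listed oocyte NLRP genes with a probe was detected on any array.

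Among the remaining lists, Obox6, an oocyte homeobox gene, differed by -1.31 ± 0.35 (SE, n = 3, limma adjusted p = 0.240, 0.0709 with the replicate block), and by -1.70 over replicates 1 and 2 against -0.52 in replicate 3. Its difference was -0.47 without background correction, and 1 of the 3 knockdown arrays did not detect it. Dazl, an RNA-binding protein of germ cells, differed by -0.93 ± 0.35 (limma adjusted p = 0.401), and Btg4, an adaptor for maternal mRNA decay, by -0.58 ± 0.26 (limma adjusted p = 0.518). The germ cell transcription factor Sohlh2 differed by -0.80 ± 0.25 (limma adjusted p = 0.308) and its partner Sohlh1 by 0.43, while the other probe of Sohlh1 gave -0.02. Oas1d, an oocyte 2'-5' oligoadenylate synthetase relative, differed by -0.63 ± 0.21 (limma adjusted p = 0.330), and its other probe by -0.04. Npm2, a nucleoplasmin of the oocyte nucleus, was detected on all 3 controls and on 0 of 3 knockdown arrays, at least 1.26-fold lower (limma adjusted p = 0.206). It passed the filter through the controls alone. Of the 5 zona and oocyte surface genes other than Zp3, none was tested. Zp1, singled out after its values were seen, was detected on 2 of 3 controls and on 0 of 3 knockdown arrays, and Zp2 on none.

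**Figure D2:**
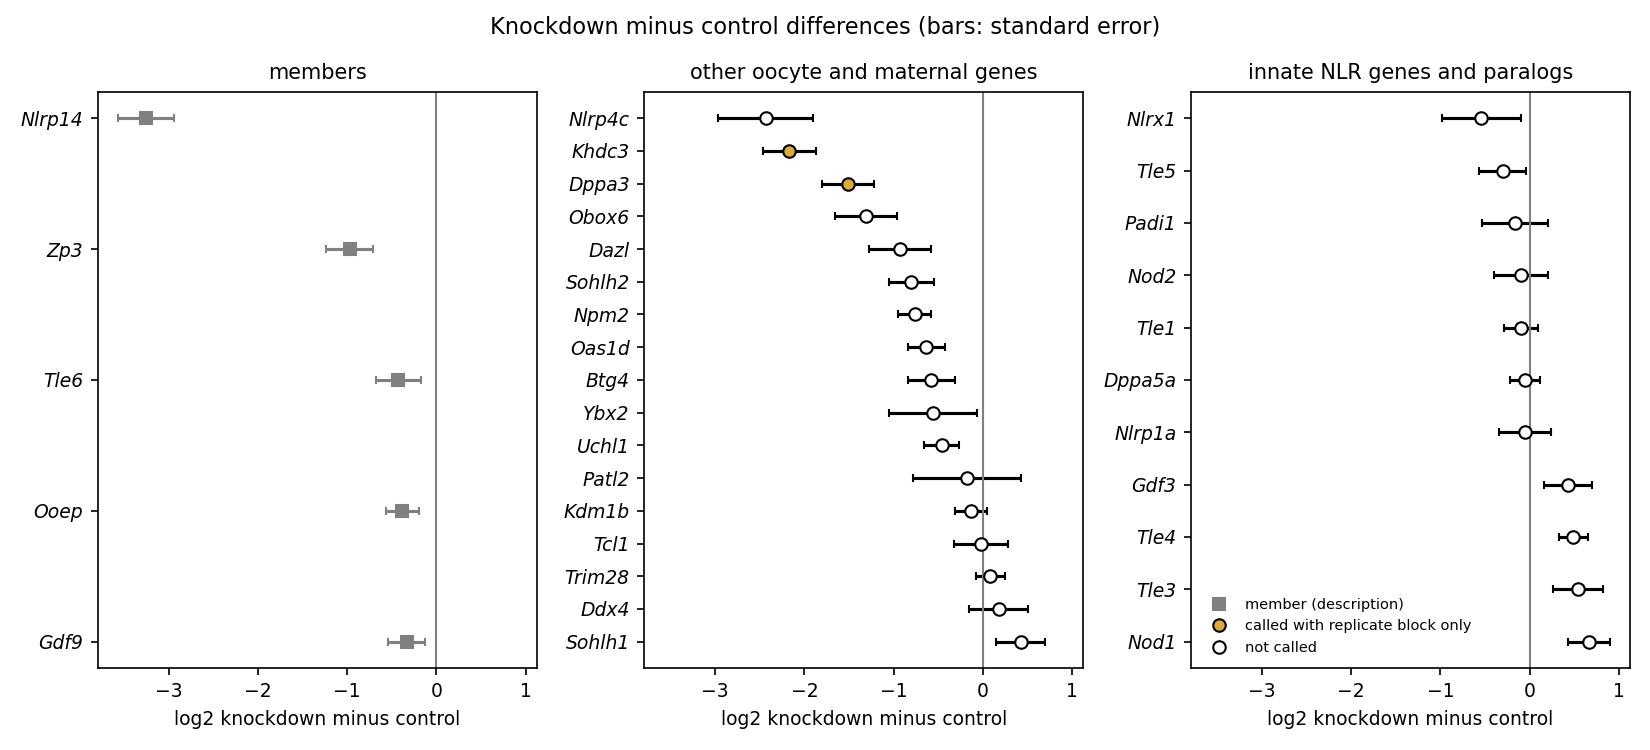
Log2 knockdown minus control difference (horizontal axis) with its standard error for the 5 tested members (grey squares), the 17 tested genes of the wider oocyte list and the 11 tested innate NLR genes and paralogs (circles). Gold circles passed with the replicate block only (Khdc3, -2.17, and Dppa3, -1.51), and no circle passed with 2-group means.

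NLR genes of innate immunity served as the family outside the oocyte. Of 16 listed, 11 had a probe and 4 were tested, and 0 passed in limma with 2-group means or with the block, where 1 of the 4 had an unadjusted p under 0.05 with 2-group means, beside 1009 of all 9015 tested genes. Their median difference was -0.07. Nod1, a sensor of bacterial peptidoglycan, differed by 0.67 ± 0.23 (SE, n = 3, limma adjusted p = 0.367), and Nlrx1, a mitochondrial NLR protein, differed by -0.54 ± 0.44 (limma adjusted p = 0.796). Paralogs of the non-NLR members gave 7 tested genes of 14 listed, of which 0 passed in either limma fit (1 of the 7 had an unadjusted p under 0.05, beside the same 1009 of 9015), with a median of -0.05. Tle4, a Groucho co-repressor related to Tle6, differed by 0.49 ± 0.16 (limma adjusted p = 0.331) and its other probes by 0.40 and 0.11. Tle3 differed by 0.54 ± 0.28 (limma adjusted p = 0.587) and its other probes by 0.40 and -0.03.

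The nearest genes with a probe on either side of the 5 tested members were also read. Olfr17 and Olfr715, around Nlrp14, were detected on no array. Dppa5a, next to Ooep and of the same KH-domain family, differed by -0.05 ± 0.17 (SE, n = 3), and Cgas on the other side was not tested. Ywhag and Dtx2, around Zp3, differed by -0.18 and -0.24. Sirt6, beside Tle6, differed by 0.52 ± 0.24 (limma adjusted p = 0.516), and Tle2 on its other side was detected on no array. Shroom1, beside Gdf9, differed by -0.06, and Uqcrq was detected on no array. Each neighbour was read by its probe of highest mean. Whether an undetected probe reads its gene was not tested, so a lack of detection does not show a silent gene.

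Likeness of profile was measured as the root mean square distance between mean-centred log2 levels over the 6 arrays, where 0 would be an identical shape, among 8855 genes. The profile closest to Nlrp14 was that of Fthl17f, an X-linked ferritin-like gene, at a distance of 0.071. It read 9.87, 10.02 and 8.92 in the controls and 6.22, 6.60 and 6.19 in the knockdown, lowest in replicate 3 of both groups as Nlrp14 was. Dnajc5g (0.317), Pkd2l1 (0.355), Aoc3 (0.383) and Crxos (0.393) followed, of which Dnajc5g was detected on 0 of 3 knockdown arrays. Fthl17f has close copies, and which of them its probe reads was not tested. The profile closest to Zp3 was that of Ctnnal1, a catenin-like gene, at 0.089, followed by Ssh2 (0.124), Eif3j1 (0.125), Slc9a3r2 (0.142) and Tktl1 (0.152). Of these, Ssh2 and Tktl1 were detected on 1 of 3 knockdown arrays and Eif3j1 on 2 of 3, so part of their likeness to Zp3 lies in background readings. Nlrp14 lay 1.25 from Zp3, 0.771 from Khdc3, 0.769 from Nlrp4c and 0.900 from Dppa3. These distances all describe the same 6 arrays and carry no test.

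**Figure D3:**
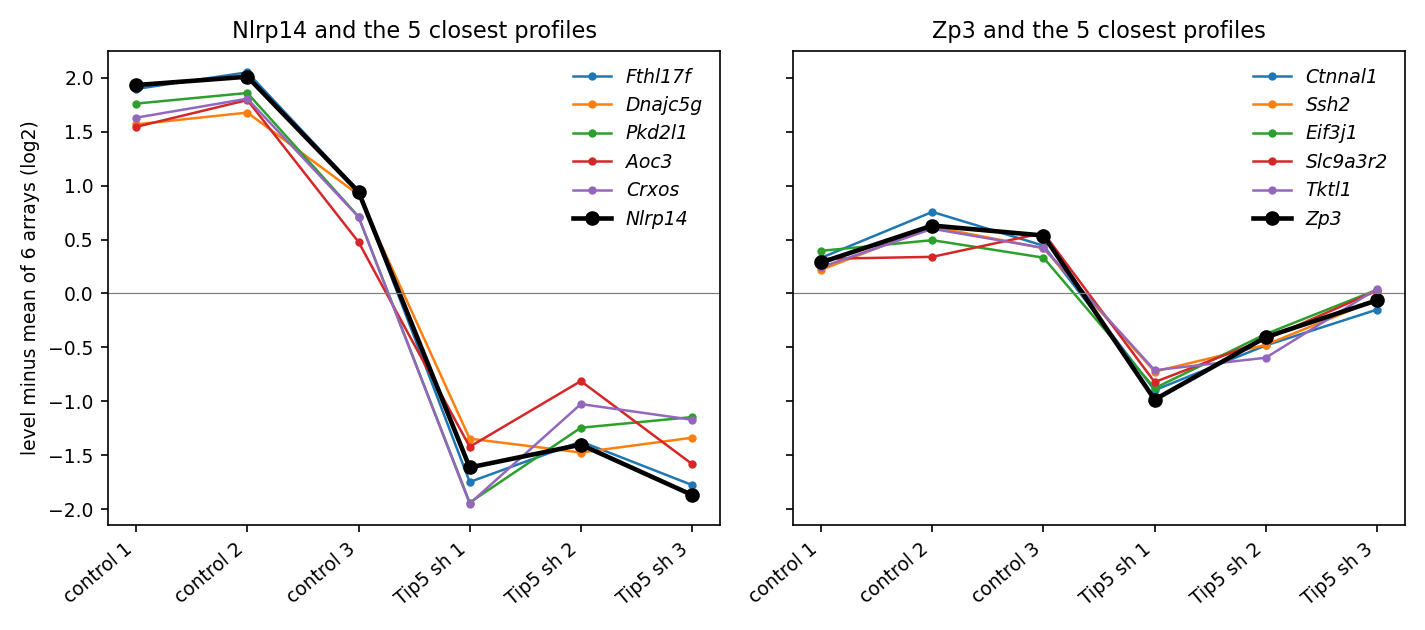
Log2 level minus the mean of the 6 arrays (vertical axis) for Nlrp14 and for Zp3 (black) with the 5 closest profiles of each, array by array. Fthl17f lies within 0.071 root mean square of Nlrp14, and Ctnnal1 within 0.089 of Zp3.

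The size of the differences was compared across processings for Nlrp14, Zp3 and Khdc3. Nlrp14 ranged from -3.60 to -2.34, a range that lay below those of the other 4 tested members. Zp3 ranged from -1.18 to -0.44, Ooep from -0.49 to -0.27, Tle6 from -0.75 to -0.26 and Gdf9 from -0.48 to -0.11. Khdc3 ranged from -2.50 to -1.61. None of these values crossed 0 under the alternatives run.

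**Figure D4:**
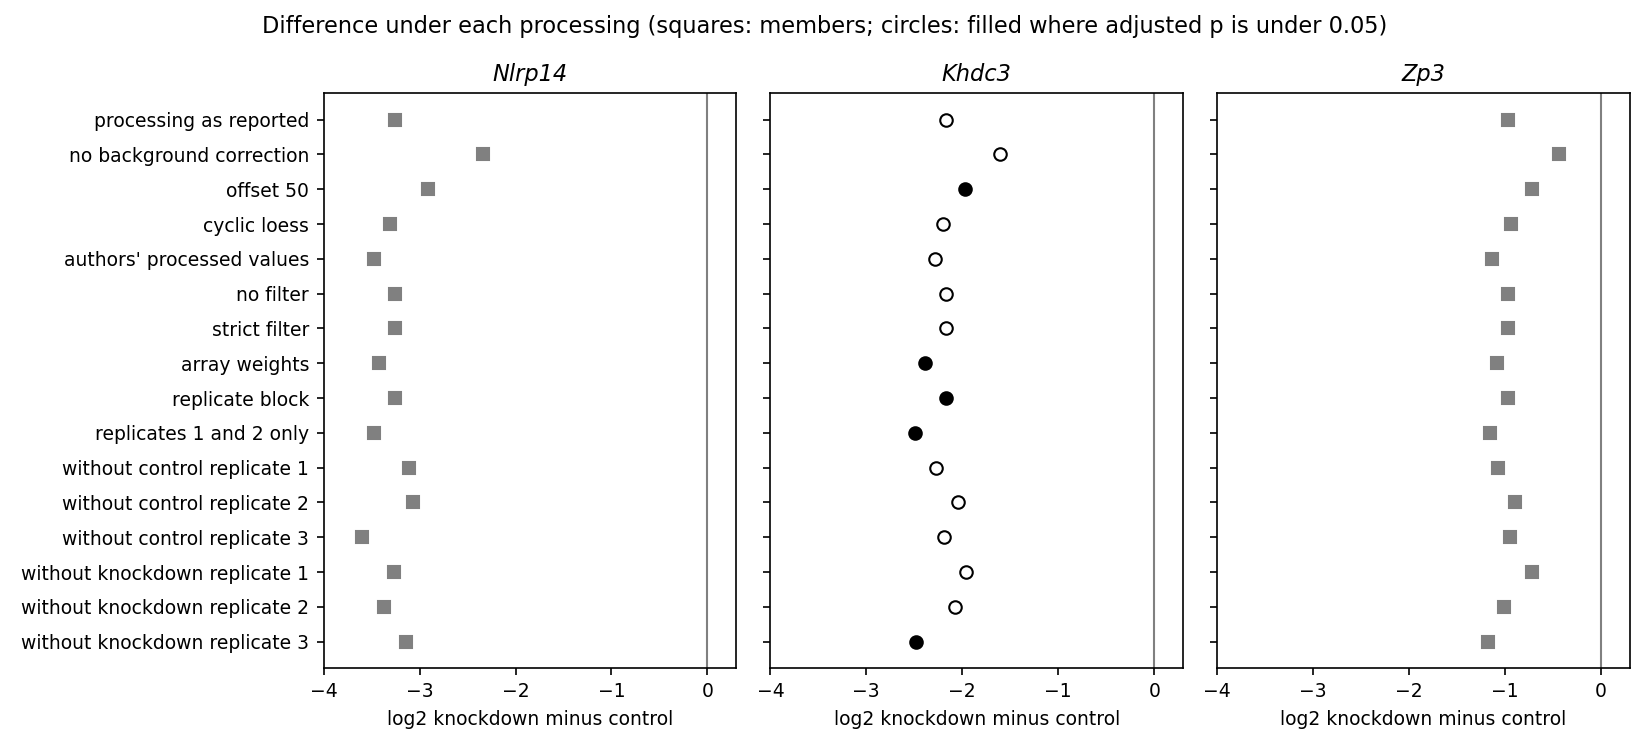
Log2 knockdown minus control difference (horizontal axis) of Nlrp14, Khdc3 and Zp3 under each processing (vertical axis); grey squares are members, circles are filled where the limma adjusted p was under 0.05. All points lie below 0. For Nlrp14, Khdc3 and Zp3 the value nearest to 0 comes without background correction, -2.34, -1.61 and -0.44.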

How the data were processed

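For each of the 6 arrays the authors' table gives, per the file headers, a linear signal intensity and a detection p-value for every probe. A second deposited table holds the authors' processed intensity with a floor of 1. It was used as an alternative, and its columns had medians of 16.2, 16.4 and 16.6 in the controls and 14.6, 15.7 and 19.2 in the knockdown. Per the submitters' processing notes GenomeStudio 2011.1 was used, in a role not given in the sources used here.

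With limma 3.58.1 in R 4.3.3, signals were background-corrected from the detection p-values (normexp, offset 16), quantile-normalized and put on the log2 scale. Of 25697 probes, 13064 (50.8%) had detection p under 0.05 on at least 3 of 6 arrays. Group means were compared with lmFit and eBayes, adjusted by Benjamini-Hochberg over those probes at a threshold of 0.05. Standard errors (SE) are moderated by limma, and SD describes the 3 arrays within a group. Where a gene had several tested probes, the one with the highest mean was used. Symbols came from the platform annotation (1719 probes had none) and were updated through a GRCm38.p6 gene table, which matched 23962. A gene undetected in a whole group has a bound against the lowest detected signal. The fit was run on simulated data with independent noise on each array. That noise lacked the shift shared by replicate 3 of both groups, so the run does not speak to calls under it.

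The replicate numbers come from the sample titles. Deviations of same-numbered arrays from their group means correlated at 0.44, 0.53 and 0.70, all over 0.1, so the numbers were taken to pair the arrays. Control 1 correlated slightly higher with knockdown 2 (0.47), and control 2 correlated at 0.37 with knockdown 1. Because replicate 3 stood apart in both groups, this rule could not tell how replicates 1 and 2 pair. The fits with the replicate block rest on the numbers as given. Named genes are Baz2a, all members, per list those that passed and the 2 of largest difference, the 5 closest profiles to Nlrp14 and to Zp3, and neighbouring genes. Members, lists and alternatives were chosen with earlier results of these data known. The number of arrays limits the precision.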

Additional observations from a re-analysis of the deposited data

How the results depend on the processing

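No result changed sign under any alternative run. Because the members were chosen with this contrast known, calls on them describe the fits and are no evidence about the members. Nlrp14 was called in the processing reported. Its call was lost with no background correction (-2.34), with the authors' processed values (-3.47) and without the detection filter (-3.26). Leaving out 1 array at a time gave -3.60 to -3.07, and the call was lost without control 1, control 2, knockdown 1 or knockdown 2. Of the 5 tested members 1 was called, beside 7 of all 9015 tested genes. The count was 0 with no background correction, beside 2 of 9015 genes. It was also 0 with the authors' values and without the filter, where 0 of all genes were called. With array weights it was 2 (Zp3 joined, -1.08), beside 898 of 9015 genes. Leaving out 1 array gave 0 to 1, beside 0 to 81 of 9015 genes. In the wider oocyte list 0 of 17 were called. The count was 1 with an offset of 50 (Khdc3), beside 23 of 9015 genes, and 7 with array weights, beside 898. With the replicate block it was 2 (Khdc3 and Dppa3), beside 176 of 9015 genes. With replicates 1 and 2 only it was 5 (Dazl, Dppa3, Khdc3, Nlrp4c and Obox6), beside 433. Leaving out 1 array gave 0 to 2, the 2 (Khdc3 and Nlrp4c) without knockdown 3, beside 81 of 9015 genes.

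Over all genes 7 were called. The count was 2 with no background correction, 23 with an offset of 50, 20 with cyclic loess, 0 with the authors' values (875 at an unadjusted p under 0.05 in limma), 0 without the filter (1520 likewise), 4 with the strict filter, 898 with array weights, 176 with the replicate block, 433 with replicates 1 and 2 only and 0 to 81 leaving out 1 array. Those 0 counts came without control 1, control 2, knockdown 1 or knockdown 2, with 597 to 776 genes at an unadjusted p under 0.05. Array weights were 0.30 for control 3 and 0.24 for knockdown 3. The strict filter and the fits that leave out an array use fewer probes or samples; for the other changes the cause was not tested. The median knockdown minus control difference of all tested genes lay between 0.006 (cyclic loess) and 0.051 (authors' values) under the scalings compared. The replicate block changed no call among the members. Other probes could be compared for Nlrp5 alone, whose 3 probes were never detected, so that alternative gave no value.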
